A study of Coturnix japonica and Phalacrocorax auritus with 29 samples.

Results

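ATP-binding cassette (ABC) proteins were followed in the embryonic liver of 2 bird species after exposure of the egg to chlorpyrifos, an organophosphate insecticide. The members were the protein names in the deposited count tables that begin with "ATP binding cassette subfamily", which gave 54 of 25523 names. Of these, 51 stood in the table of Japanese quail (JQ, 22845 names), 50 in that of double-crested cormorant (DCCO, 21547 names) and 47 in both. Symbols such as ABCB1 are written here for the corresponding protein names. The choice rested on the name alone, and it takes in ABCE1 and the ABCF proteins, which carry the ATP-binding domains but no membrane domain and are not transporters.

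Livers came from quail exposed to the high dose (5 libraries), to the medium dose (5) or to DMSO alone (5 controls), and from cormorants exposed to the high dose (5), to the medium dose (5) or to DMSO alone (4 controls). Chlorpyrifos dissolved in DMSO, or the solvent by itself, was placed in the air cell of fertilized eggs. Nominal amounts in the labels are 0.4, 4 and 40 µg for each g of egg, with nothing tying them to the group names, and the high dose was set from the mortality of each species, so the same group name need not stand for the same dose in both. Quail livers are labelled as embryonic day 9, except control 5, which is labelled day 16, and cormorant livers as day 16. The 4 cormorant controls include 1 whose replicate number in the column name, 5, matches no control title. It is called the unnumbered control here.

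ABC transporters use ATP to move lipids, bile salts, sterols, peptides, metals and conjugated drugs across membranes. In hepatocytes, ABCB11, ABCB4, ABCB1, ABCC2, ABCG2 and the ABCG5 and ABCG8 pair sit in the canalicular membrane and export into bile, ABCC3, ABCC4 and ABCC6 sit in the basolateral membrane, and ABCA1 loads cholesterol onto apolipoprotein A-I. These roles are known mainly from mammals. Several of the genes are known targets of nuclear receptors that respond to bile acids, oxysterols or foreign compounds.

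Libraries held 11548222 to 27778954 counts in quail and 9890108 to 21976904 in cormorants. All 14 hepatocyte markers examined were detected in every library, and their summed level was lower in high-dose quail livers (116973 to 212988 CPM, counts scaled to the library total) than in quail controls (231136 to 275929 CPM), without overlap. The 7 kidney markers found in the quail table, 2 of them at 0 in high 1, summed to 1991 CPM in the quail library high 1, against 14.99 to 56.6 CPM in the other quail libraries. The 7 gut markers found in quail summed to 682 to 1417 CPM in medium-dose livers and 450 to 605 CPM in controls, without overlap. At the high dose they summed to 546 to 1193 CPM, which overlapped both. Of the 5 tested, 0 were called at the medium dose (edgeR), and their part in the members' values was not tested. In cormorants, control 2 had the highest sums of the 6 kidney markers found (282 CPM, against 42.4 to 114 CPM elsewhere) and of the 8 gut markers found (512 CPM, against 91.7 to 292 CPM). Control columns of the cormorant table carry a different name prefix from the exposed columns, so whatever that prefix stands for and the exposure cannot be told apart. These are whole-liver libraries, in which fewer cells of a type and less RNA per cell cannot be told apart. Nothing in the labels says whether embryos shared a clutch or a mother.

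At the high dose, quail livers had higher levels of the multidrug exporter ABCB1, its relative ABCB4 and the conjugate exporter ABCC2, and lower levels of the lipid transporter ABCA2. ABCA13 was also called lower, on 9 reads in the high group against 541 in controls, with overlapping groups; it passed the count filter through the control and medium libraries in which it is high, and did not pass it with the high-dose and control groups alone. With it, 3 members were called higher and 2 lower of the 40 that could be tested, at a Benjamini-Hochberg adjusted p under 0.05 in edgeR's quasi-likelihood test over all 14927 names. Over all names tested, 3.56% were called in this comparison (2.12% higher and 1.44% lower). The log2 fold change (high dose over control) had a median of 0.03 over the 40 members and 0.01 over all names, and 11 of the 40 members had an unadjusted p under 0.05, as did 2479 of all names. In 3 members every high-dose library lay above every control, and in 1 member every high-dose library lay below, while 4.9% of all names had groups that did not overlap in either direction. The summed level of all 51 members was 1843 ± 71.1 CPM in high-dose livers and 1634 ± 65.4 CPM in controls (SD, n = 5 each), and the groups did not overlap (1772 to 1941 CPM against 1529 to 1703 CPM). Without ABCB1 and ABCC2, both called higher in this comparison, it was 1378 ± 31.0 CPM in high-dose livers and 1374 ± 72.2 CPM in controls, with overlapping groups. Leaving out members called higher narrows the gap by choice, so these sums are no test of the other members. The hepatocyte marker sum was lower in the same high-dose livers, where 1 of the 14 markers was called lower and 0 higher (median log2 fold change -0.56). Of 9 bile duct markers tested in quail, 2 were called higher and 0 lower, with a median log2 fold change of 0.31. One of them was the secreted phosphoprotein SPP1 (2.53, adjusted p = 0.00443, edgeR). The 11 bile duct markers found summed to 609 to 908 CPM in high-dose livers and 576 to 682 CPM in controls, which overlapped, and KRT7 had at most 3 reads in any quail library. The part of these markers in the calls of the members was not tested.

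**Figure D1:**
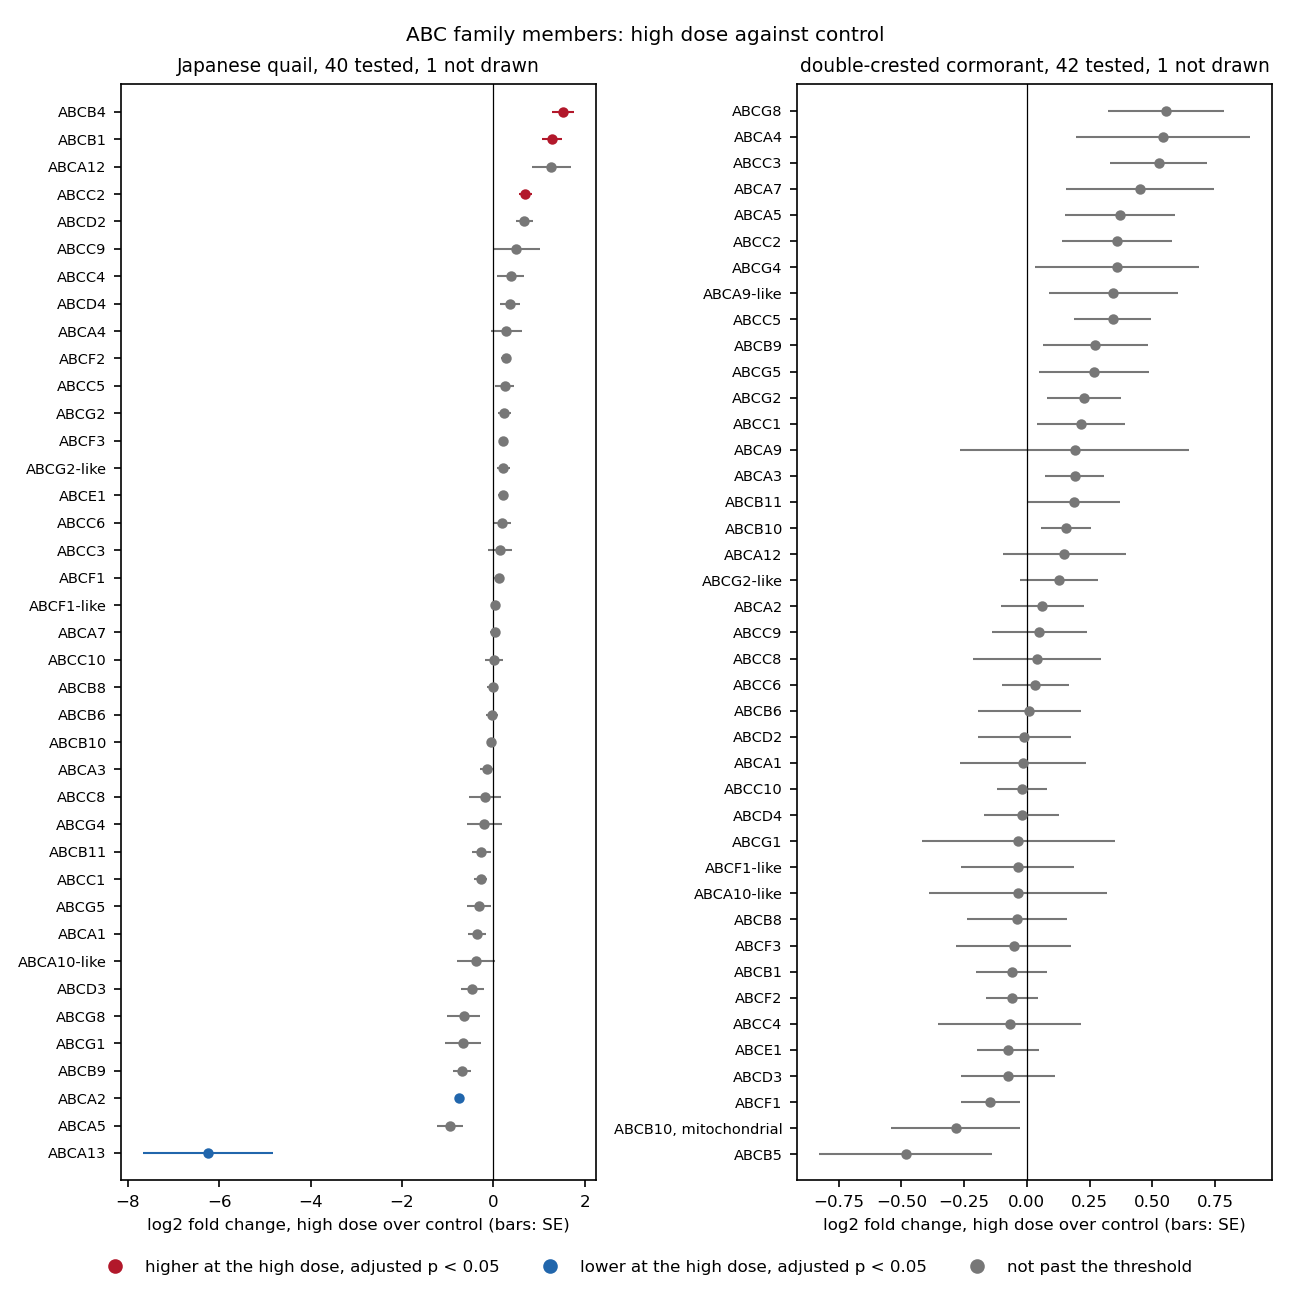
Log2 fold change (horizontal axis, high dose over control) with its standard error for the members tested, sorted by size, in Japanese quail (left, 40 tested) and double-crested cormorant (right, 42 tested, on a narrower scale); 1 member that is not reported here is not drawn. Red and blue points passed an adjusted p under 0.05; 5 quail members and 0 cormorant members did, with ABCB4 (1.53), ABCB1 (1.28), ABCC2 (0.70), ABCA2 (-0.75) and ABCA13 (-6.25) in quail.

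ABCB1, the P-glycoprotein that expels a wide range of hydrophobic drugs from cells, was read at 59.3, 64.0, 35.7, 44.6 and 61.1 CPM in controls, 48.4, 63.8, 50.4, 76.8 and 35.7 CPM in the medium group and 109.7, 93.5, 181, 117 and 140.4 CPM in the high group. Every high-dose library was above every control and every medium-dose library, and the control and medium groups overlapped. The mean was 128 ± 33.9 CPM in high-dose livers and 52.9 ± 12.2 CPM in controls (SD, n = 5 each), a log2 fold change of 1.28 ± 0.22 (SE; adjusted p = 0.00516, edgeR). The call held with each library left out in turn and under each other setting tried, where the adjusted p was 2.27e-06 to 0.0275.

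ABCB4, which in mammals flips phosphatidylcholine into bile and is the closest relative of ABCB1, was listed in the quail table and not in the cormorant table. It was read at 1.497, 1.03, 1.03, 1.28 and 1.54 CPM in controls, 1.46, 2.002, 1.38, 2.47 and 1.13 CPM in the medium group and 2.77, 2.70, 4.86, 3.90 and 4.30 CPM in the high group. High-dose libraries again lay above all others of the species, the 2 lowest of them (2.77 and 2.70 CPM) just above the highest medium-dose library. Its mean was 3.71 ± 0.950 CPM in high-dose livers and 1.28 ± 0.243 CPM in controls (SD, n = 5 each), with a log2 fold change of 1.53 ± 0.24 (SE; adjusted p = 0.00257, edgeR).

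Further protein names in the table describe the same group of proteins without the ABC prefix, and reads of near-identical proteins can be shared among such names, so the split between ABCB1 and ABCB4 is uncertain. Of these, the name multidrug resistance protein 1-like averaged 26.1 ± 8.28 CPM in high-dose livers and 9.80 ± 2.95 CPM in controls (SD, n = 5 each; log2 fold change 1.41, adjusted p = 0.00745, edgeR). The name multidrug resistance protein 1b-like averaged 1.76 ± 0.473 CPM in high-dose livers and 0.730 ± 0.261 CPM in controls (log2 fold change 1.25, adjusted p = 0.0358, edgeR). A further name ending in member 1-like a differed by 0.61 on the log2 scale and did not pass (adjusted p = 0.240, edgeR). With ABCB1, ABCB4, these names and the rarer multidrug resistance protein 1 and protein 3-like summed to 1 feature, the log2 fold change was 1.27 (adjusted p = 0.00583, edgeR). ABCB1 held most reads of that sum in quail (24610, against 4917 for multidrug resistance protein 1-like), so the sum largely repeats ABCB1.

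ABCC2, the canalicular exporter of glutathione and glucuronide conjugates and of conjugated bilirubin, was read at 179, 187, 242, 213 and 214 CPM in controls, 286, 276, 202, 201 and 203 CPM in the medium group and 293, 275, 330.1, 409 and 375 CPM in the high group. All high-dose libraries were above the highest control, while 2 of the 5 medium-dose libraries also lay above it, inside the high-dose range. Its mean was 336 ± 55.8 CPM in high-dose livers and 207 ± 24.9 CPM in controls (SD, n = 5 each), a log2 fold change of 0.70 ± 0.14 (SE; adjusted p = 0.0114, edgeR).

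ABCA2, a transporter of late endosomes and lysosomes linked to sterol and sphingolipid handling, had the smallest adjusted p of the family. It was read at 73.7, 68.4, 78.3, 72.4 and 70.1 CPM in controls, 60.6, 60.5, 60.5, 63.2 and 54.4 CPM in the medium group and 38.4, 37.2, 45.9, 49.99 and 44.2 CPM in the high group. The 3 groups did not overlap: each medium-dose library was below each control, and each high-dose library below each medium-dose library. High-dose livers averaged 43.1 ± 5.32 CPM, against 72.6 ± 3.82 CPM in controls (SD, n = 5 each), a log2 fold change of -0.75 ± 0.08 (SE; adjusted p = 0.000115, edgeR). The hepatocyte marker sum was also lower at the high dose, as given above. At the medium dose that sum overlapped controls (184252 to 294879 CPM against 231136 to 275929 CPM). Its part in the ABCA2 values was not tested.

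**Figure D2:**
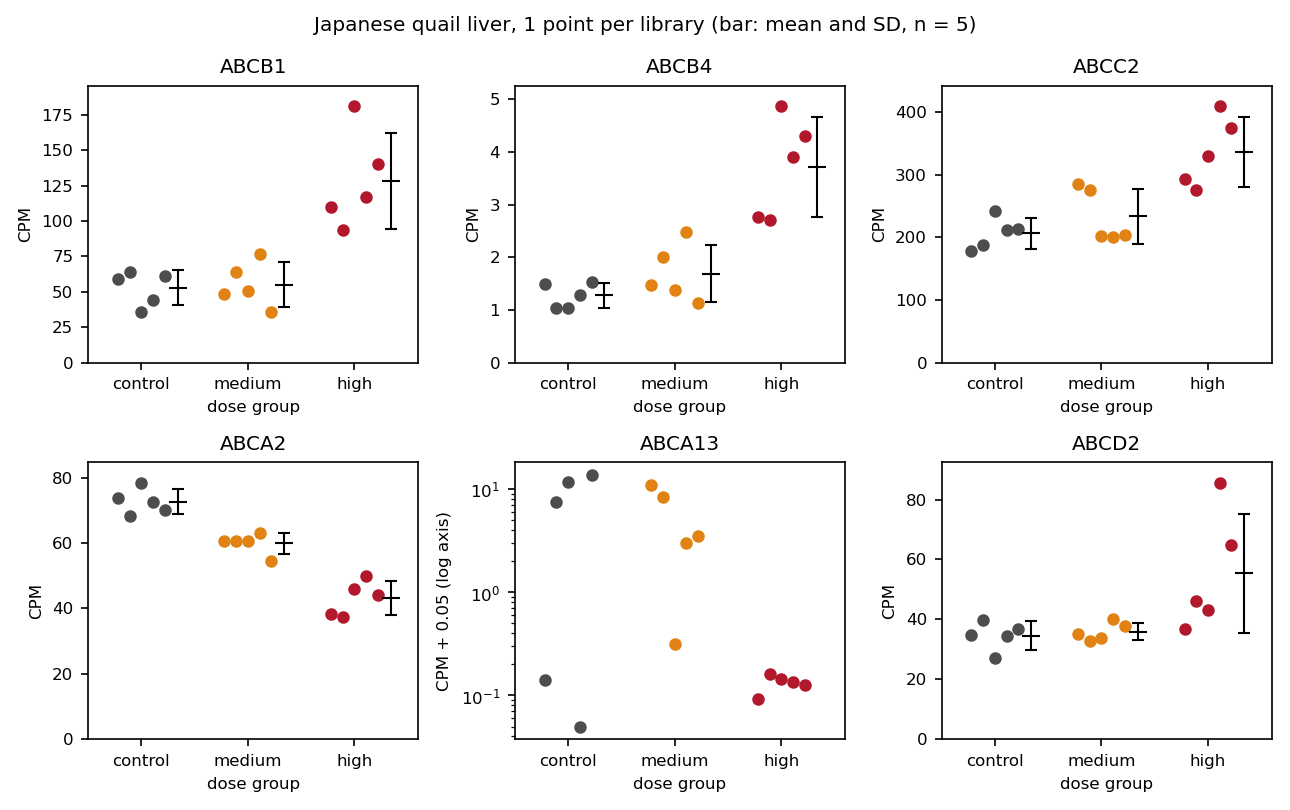
CPM (vertical axis, log axis with 0.05 added for ABCA13) of 6 members in the 15 Japanese quail libraries by dose group, 1 point per library, with mean and SD (n = 5) beside the points except for ABCA13. High-dose points lie above all others for ABCB1 (93.5 to 181 CPM) and ABCB4 (2.70 to 4.86 CPM) and below all others for ABCA2 (37.2 to 49.99 CPM), while ABCA13 splits into high and near-zero libraries within the control and medium groups.

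ABCA13, a very large member of the lipid-transporting A subfamily, had reads that split within the control and medium groups. They numbered 2, 117, 172, 0 and 250 in controls 1 to 5, 211, 209, 5, 62 and 40 in the medium group, and 1, 2, 2, 2 and 2 in the high group. Controls 1 and 4 were as low as the high-dose libraries, so the high-dose and control groups overlapped, and medium 3 was close above them. The fitted log2 fold change was -6.25 ± 1.42 (SE; adjusted p = 0.0248, edgeR) and rests on 9 reads in the high group against 541 in controls. The adjusted p was between 0.0523 and 0.0676 when high 1, 3, 4 or 5 or control 5 was left out, and 0.601 in limma voom. In cormorants ABCA13 had 0 to 13 reads per library and did not pass the count filter.

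ABCA5, a lysosomal relative of ABCA2, was read at 22.7, 8.63, 12.4, 13.4 and 7.41 CPM in controls, 9.36, 8.69, 9.26, 12.5 and 7.59 CPM in the medium group and 9.55, 4.45, 8.30, 7.03 and 4.14 CPM in the high group in quail. Control 1 stood well above the other controls, and the high-dose and control ranges overlapped. The log2 fold change was -0.95 ± 0.29 and did not pass (adjusted p = 0.0969, edgeR). Also short of the threshold were ABCA12, a lipid transporter best known from skin (log2 fold change 1.27, adjusted p = 0.120), and ABCB9, a lysosomal peptide transporter (-0.69, adjusted p = 0.0651, edgeR), which were named after their values were seen.

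The peroxisomal members ABCD2 and ABCD3 import fatty acids for beta-oxidation. ABCD2 was read at 34.8, 39.8, 27.0, 34.4 and 36.8 CPM in controls, 35.2, 32.8, 33.7, 40.0 and 37.8 CPM in the medium group and 36.9, 46.2, 43.1, 85.5 and 64.8 CPM in the high group in quail. The highest values were in high 4 and high 5, high 1 lay inside the control range, and the log2 fold change of 0.68 ± 0.19 did not pass (adjusted p = 0.0605, edgeR). Over the 15 fits that leave out 1 library it ran from 0.47 to 0.79, with an adjusted p of 0.0213 to 0.134 (edgeR). It passed in 1 of them, without high 1 (0.79, adjusted p = 0.0213, edgeR). That library had high kidney marker levels, whose part in the ABCD2 values was not tested. ABCD3 was read at 75.9, 48.5, 49.8, 62.9 and 44.3 CPM in controls, 54.0, 46.9, 39.4, 70.3 and 31.4 CPM in the medium group and 43.3, 61.6, 22.9, 35.2 and 41.1 CPM in the high group. Its groups overlapped and its log2 fold change was -0.46 ± 0.25 (adjusted p = 0.379, edgeR). Among 16 genes of peroxisome biogenesis, 0 rose and 1 fell, PEX2 (-0.42, adjusted p = 0.0486, edgeR), and their median log2 fold change was -0.07. Over all names, 2.12% were called higher and 1.44% lower in this comparison.

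The main bile salt exporter ABCB11 did not pass in quail. It was read at 127, 107, 85.0, 128 and 97.9 CPM in controls, 83.7, 142, 108, 117 and 66.1 CPM in the medium group and 89.7, 115, 53.5, 112 and 84.1 CPM in the high group, with overlapping groups and a log2 fold change of -0.26 ± 0.22 (adjusted p = 0.617, edgeR). ABCG2, a canalicular exporter of urate, porphyrins and drugs, was read at 122, 98.8, 109, 91.1 and 86.8 CPM in controls, 114, 102, 76.6, 124 and 109 CPM in the medium group and 123, 134, 135, 126 and 82.5 CPM in the high group. High 5 stood below the other 4 high-dose libraries, and the log2 fold change was 0.24 ± 0.15 (adjusted p = 0.463, edgeR). The name ABCG2-like, with which it may share reads, gave 0.21.

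ABCG5 and ABCG8 form 1 heterodimer that excretes sterols into bile, and the RefSeq gene table of the quail genome (Coturnix japonica 2.1) lists them as neighbours. ABCG5 was read at 12.2, 10.9, 13.4, 15.6 and 16.0 CPM in controls, 10.8, 19.1, 10.3, 19.0 and 9.68 CPM in the medium group and 13.1, 10.8, 4.82, 13.1 and 12.5 CPM in the high group, with high 3 the lowest of the 15 libraries. ABCG8 was read at 4.04, 1.80, 7.71, 3.96 and 7.85 CPM in controls, 2.77, 3.003, 4.71, 4.23 and 2.44 CPM in the medium group and 2.34, 1.75, 3.24, 4.72 and 4.07 CPM in the high group, with controls 3 and 5 the highest. Neither passed: the log2 fold changes were -0.33 ± 0.26 for ABCG5 (adjusted p = 0.600) and -0.65 ± 0.36 for ABCG8 (adjusted p = 0.403, edgeR). ABCA1 was read at 158, 141, 122, 119 and 135 CPM in controls, 165, 139, 97.6, 141 and 77.7 CPM in the medium group and 87.0, 106, 125, 77.3 and 129.7 CPM in the high group. Its 3 lowest high-dose libraries were below every control, and its log2 fold change of -0.36 ± 0.19 did not pass (adjusted p = 0.367, edgeR).

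Basolateral exporters carry conjugates and bile salts back to the blood. ABCC3 was read at 4.58, 7.41, 9.43, 5.11 and 5.82 CPM in controls, 4.86, 8.01, 8.57, 4.28 and 3.92 CPM in the medium group and 10.1, 4.68, 6.91, 7.29 and 6.67 CPM in the high group. ABCC4 was read at 1.81, 1.42, 1.38, 2.24 and 1.43 CPM in controls, 1.36, 1.12, 1.01, 2.47 and 2.53 CPM in the medium group and 2.599, 1.35, 2.003, 1.80 and 2.98 CPM in the high group. ABCC6, whose loss causes soft tissue calcification in humans, was read at 80.7, 92.9, 85.8, 61.4 and 102 CPM in controls, 59.7, 55.1, 82.0, 66.8 and 79.5 CPM in the medium group and 96.4, 78.2, 116, 129.5 and 64.0 CPM in the high group. In each of them the high-dose and control libraries overlapped. Their log2 fold changes were 0.14, 0.38 and 0.20, with adjusted p of 0.848, 0.585 and 0.672 in that order (edgeR).

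**Figure D3:**
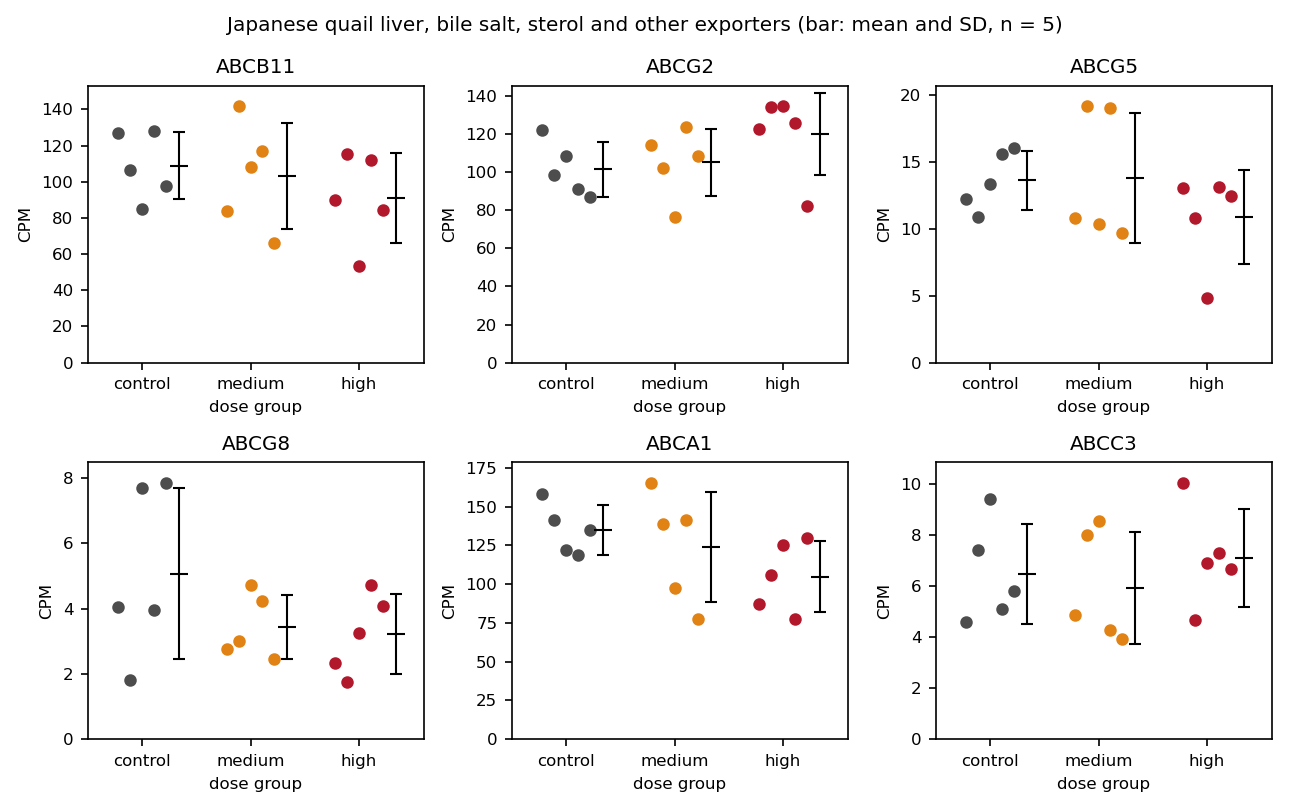
CPM (vertical axis) of the exporters ABCB11, ABCG2, ABCG5, ABCG8, ABCA1 and ABCC3 in the 15 Japanese quail libraries by dose group, 1 point per library, with mean and SD (n = 5). In each panel the high-dose and control points overlap; for ABCB11 they run from 53.5 to 115 CPM at the high dose and from 85.0 to 128 CPM in controls.

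Genes that supply these exporters with substrate or regulate them were read in the same fit, from lists chosen with earlier results of these data known. Of 12 uptake and basolateral carriers tested, 1 rose, SLC51B, a subunit of the bile salt carrier OST (2.31 on the log2 scale, adjusted p = 0.0453, edgeR), at 38.4 ± 42.4 CPM in high-dose livers and 7.73 ± 2.82 CPM in controls (SD, n = 5 each). Its SD at the high dose exceeded its mean, and the part of single libraries in this rise was not tested. Of 10 genes of bile acid synthesis and conjugation, 0 rose and 1 fell, AMACR, which racemizes branched acyl-CoA (-0.86, adjusted p = 0.0411, edgeR). Of 19 regulators of ABC genes, 2 rose and 0 fell. These were the nuclear receptor PPARG (1.73, adjusted p = 0.000649) and KEAP1, which holds back NRF2 (0.40, adjusted p = 0.0185, edgeR), while the bile acid receptor NR1H4 differed by -0.54 and did not pass (adjusted p = 0.0794). Of 17 genes of cholesterol and HDL handling, 1 rose, HMGCS1 of cholesterol synthesis (2.18, adjusted p = 0.00766, edgeR), and 0 fell. Median log2 fold changes were 0.21 for the carriers, -0.09 for bile acid synthesis, 0.05 for the regulators and 0.22 for cholesterol handling, against 0.01 over all names. The shares called over all names were 2.12% higher and 1.44% lower.

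The mitochondrial members ABCB6, ABCB8 and ABCB10, of which ABCB6 and ABCB10 serve heme synthesis, had log2 fold changes from -0.05 to -0.02 in quail and none passed. ABCB10 was read at 37.7, 35.8, 32.3, 35.3 and 38.3 CPM in controls, 30.6, 37.6, 39.9, 39.2 and 33.4 CPM in the medium group and 31.8, 37.7, 33.2, 32.8 and 37.3 CPM in the high group (log2 fold change -0.05 ± 0.09, adjusted p = 0.824, edgeR). Of 16 genes of heme synthesis and mitochondrial iron, 4 rose and 0 fell, where 2.12% of all names were called higher and 1.44% lower. These were ALAS1, the first enzyme of heme synthesis (4.30 on the log2 scale), SLC25A39, a mitochondrial glutathione carrier (0.60), FTH1 of ferritin (0.997) and the heme-degrading HMOX1 (0.58). The median over the list was 0.06.

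ABCE1 recycles ribosomes, and the ABCF proteins act in translation and its control. ABCE1 was read at 119, 124, 105, 107 and 129 CPM in controls, 130.1, 118, 134, 128 and 119.8 CPM in the medium group and 119.9, 156, 116, 125 and 157 CPM in the high group, ABCF1 at 44.6, 51.9, 40.8, 43.5 and 52.1 CPM in controls, 53.0, 45.6, 56.2, 50.9 and 54.4 CPM in the medium group and 45.9, 56.3, 46.4, 46.6 and 58.2 CPM in the high group, and ABCF3 at 59.2, 61.0, 63.4, 56.5 and 64.7 CPM in controls, 52.4, 63.4, 60.9, 64.5 and 52.9 CPM in the medium group and 71.6, 61.5, 73.5, 74.6 and 73.5 CPM in the high group. High-dose and control ranges overlapped in each. The log2 fold changes were 0.21, 0.12 and 0.22, where ABCF3 had an unadjusted p under 0.05 and an adjusted p = 0.177 (edgeR). The peptide transporters TAP1 and TAP2, ABC proteins listed under other names, differed by -1.21 and -1.04 and did not pass (adjusted p = 0.187 and 0.147, edgeR), and the chloride channel CFTR by 0.53 (adjusted p = 0.407). Among 11 genes of antigen presentation, TAP1 and TAP2 included, 0 passed in edgeR.

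At the medium dose, 0 of the 40 quail members and 0% of all names were called against controls (edgeR), and DESeq2 and limma voom also called 0 members. Unadjusted p was under 0.05 in 2 members and in 646 of the 14927 names. One was ABCA2, at 59.8 ± 3.23 CPM in medium-dose livers and 72.6 ± 3.82 CPM in controls (SD, n = 5 each), with a log2 fold change of -0.28 ± 0.08 and every medium-dose library below every control, where 0.891% of all names had groups that did not overlap. The other was ABCG1, a sterol exporter of macrophages (-0.99, at 0.591 CPM in medium-dose livers and 1.20 CPM in controls). The 7 macrophage markers tested had a median log2 fold change of -0.67 in the same comparison, with 0 called in edgeR (1 of them, MARCO, at an unadjusted p under 0.05). The sum of the 9 found was 53.5 to 82.5 CPM in medium-dose livers and 63.6 to 93.0 CPM in controls, with TIMD4 and MRC1 at 0 in 7 of the 15 quail libraries each, and its part in the ABCG1 value was not tested. ABCB1 differed by 0.06 ± 0.22.

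Between the high and medium doses in quail, 2 members were called higher and 2 lower, against 1.89% of all names called (1.38% higher and 0.509% lower). ABCB1 was higher by 1.22 (adjusted p = 0.00917) and ABCB4 by 1.12 (adjusted p = 0.0250, edgeR). ABCA2 was lower (-0.47, adjusted p = 0.00788), as was ABCA13 (-5.92, adjusted p = 0.0477, edgeR). ABCC2 differed by 0.53 and did not pass (adjusted p = 0.0744). The high-dose and medium-dose libraries of these 4 members did not overlap, which held for 2.93% of all names. Among them, ABCA13 passed the count filter through the control and medium libraries in which it is high. Its call and lack of overlap therefore carry no weight. The comparison between doses shares its high-dose libraries with the comparison against controls. The ABCB4 call was lost when high 3, 4 or 5 or medium 1, 3 or 5 was left out, at adjusted p of 0.0529 to 0.0732, and the ABCA13 call when any library but medium 3 or control 1 or 4 was left out, at 0.0560 to 0.116. The ABCB4 call was also lost with the replicate number as a block and with the 2 groups alone (adjusted p up to 0.0794, edgeR). That of ABCA13 was also lost with no filter, in limma voom and with the block. ABCA13 was not tested with the 2 groups alone.

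In cormorants, 0 of 42 members tested were called between the high dose and controls, where 0.0343% of the 14579 names tested were called (edgeR). DESeq2 and limma voom called 0 members as well, and 3 members had an unadjusted p under 0.05, as did 777 of all names. The smallest adjusted p was that of ABCC3, at 10.8, 7.92, 13.5 and 11.2 CPM in controls, 13.3, 11.4, 11.9, 16.1 and 19.9 CPM in the medium group and 11.5, 15.1, 16.9, 16.2 and 18.5 CPM in the high group, where 4 of the 5 high-dose libraries lay above every control. Its log2 fold change was 0.53 ± 0.19 (adjusted p = 0.788, edgeR). ABCG8 was read at 21.4, 10.4, 25.5 and 14.8 CPM in controls, 17.1, 18.8, 24.3, 26.0 and 13.8 CPM in the medium group and 21.0, 28.5, 27.1, 26.3 and 29.6 CPM in the high group, also with 4 of 5 high-dose libraries above every control (log2 fold change 0.56 ± 0.23, adjusted p = 0.883, edgeR). The third was ABCC5, a cyclic nucleotide exporter, with 0.34 (adjusted p = 0.903).

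ABCB1, ABCC2 and ABCA2, called in quail, did not pass in cormorants. ABCB1 was read at 56.1, 48.4, 36.5 and 41.2 CPM in controls, 40.6, 34.8, 49.0, 38.4 and 30.6 CPM in the medium group and 43.6, 41.6, 49.2, 43.9 and 40.0 CPM in the high group. The 3 cormorant groups overlapped, and the log2 fold change was -0.06 ± 0.14. ABCC2 was read at 26.7, 63.2, 53.4 and 65.9 CPM in controls, 55.4, 58.7, 37.6, 42.7 and 33.8 CPM in the medium group and 74.4, 65.2, 66.3, 71.5 and 57.9 CPM in the high group, where control 1 was the lowest library and 3 of the 5 high-dose libraries lay above every control. Its log2 fold change was 0.36 ± 0.22. ABCA2 was read at 50.4, 42.0, 69.0 and 54.2 CPM in controls, 55.5, 64.1, 54.4, 66.3 and 46.3 CPM in the medium group and 40.0, 57.1, 59.8, 53.3 and 71.5 CPM in the high group, with a log2 fold change of 0.06 ± 0.17.

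**Figure D4:**
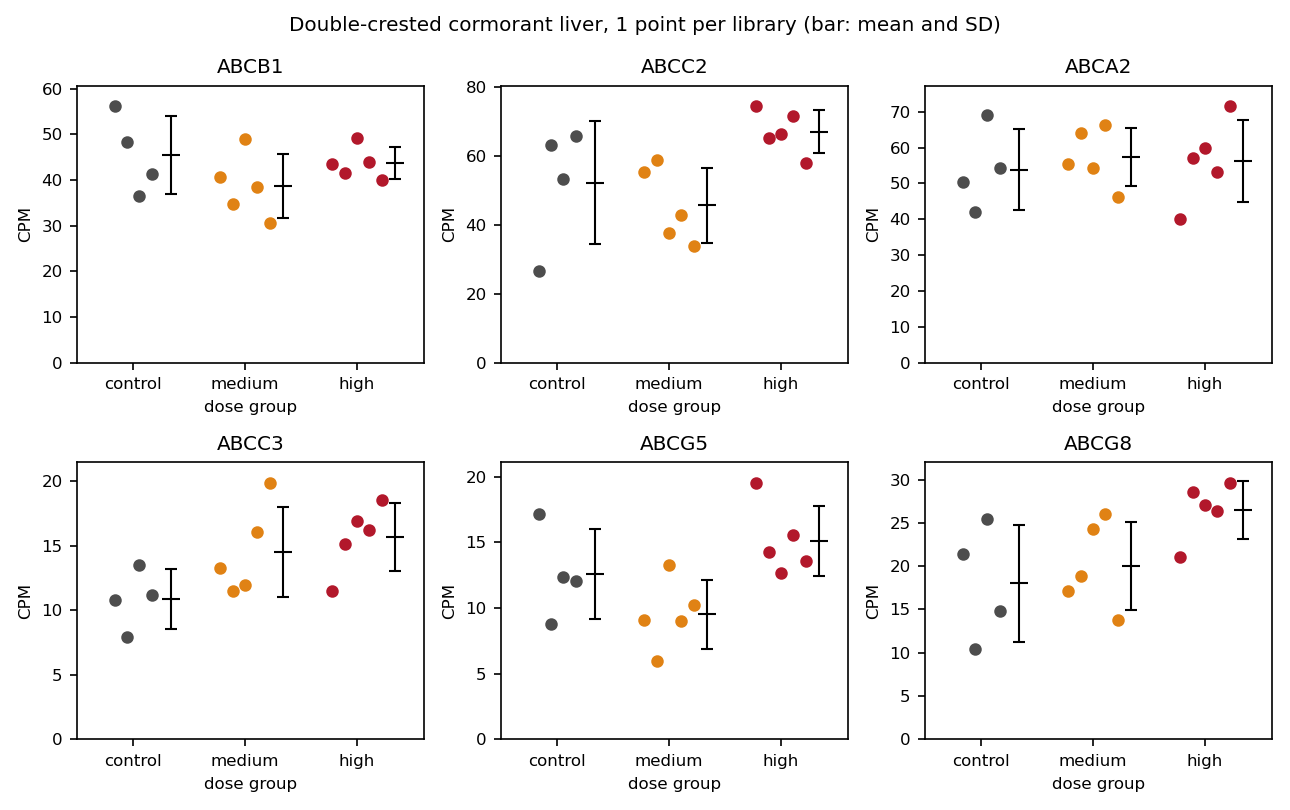
CPM (vertical axis) of 6 members in the 14 double-crested cormorant libraries by dose group, 1 point per library, with mean and SD (n = 4 controls, 5 medium and 5 high). High-dose points overlap the control points in every panel; ABCB1 runs from 40.0 to 49.2 CPM at the high dose and from 36.5 to 56.1 CPM in controls.

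Among the bile and sterol exporters of cormorants, ABCB11 was read at 207, 215, 351 and 236 CPM in controls, 260.0, 331, 326, 357 and 243 CPM in the medium group and 211, 273, 312, 367 and 275 CPM in the high group. ABCG5 was read at 17.2, 8.76, 12.4 and 12.1 CPM in controls, 9.12, 5.97, 13.3, 8.97 and 10.2 CPM in the medium group and 19.5, 14.3, 12.6, 15.5 and 13.6 CPM in the high group, and ABCG2 at 137, 107, 144 and 119 CPM in controls, 137, 157, 141, 139 and 111 CPM in the medium group and 198, 148, 139, 147 and 112 CPM in the high group. For ABCG5, 4 of the 5 high-dose libraries were above every medium-dose library (log2 fold change, high over medium dose, 0.66 ± 0.21; unadjusted p = 0.00531, adjusted p = 0.9996, edgeR). ABCA1 was read at 84.1, 107, 152 and 108 CPM in controls, 90.3, 120.3, 155, 128 and 93.3 CPM in the medium group and 50.9, 113, 139, 119 and 137 CPM in the high group, and ABCA5 at 22.9, 24.2, 34.3 and 26.9 CPM in controls, 28.95, 30.7, 37.3, 40.1 and 26.0 CPM in the medium group and 17.7, 39.2, 38.9, 35.0 and 44.9 CPM in the high group. In both, high 1 was the lowest library of the species. The high-dose and control ranges of these 5 members overlapped.

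ABCC4 was read at 4.27, 7.92, 7.69 and 6.21 CPM in controls, 7.52, 8.33, 11.1, 9.35 and 3.72 CPM in the medium group and 3.66, 7.54, 5.54, 7.15 and 7.38 CPM in the high group, and ABCC6 at 16.6, 17.1, 19.4 and 19.6 CPM in controls, 17.6, 22.8, 23.7, 18.5 and 16.4 CPM in the medium group and 15.9, 17.1, 19.8, 21.8 and 18.4 CPM in the high group. ABCD2 was read at 15.4, 33.1, 22.9 and 22.8 CPM in controls, 22.1, 23.6, 19.3, 26.5 and 18.9 CPM in the medium group and 25.6, 22.9, 19.9, 28.8 and 19.8 CPM in the high group, and ABCD3 at 25.9, 51.7, 57.6 and 49.9 CPM in controls, 48.2, 55.2, 52.8, 57.3 and 40.5 CPM in the medium group and 35.8, 46.8, 46.6, 52.0 and 38.4 CPM in the high group. The control range was wider than the high-dose range in ABCD2 and ABCD3, with control 1 the lowest library of both. ABCB10 was read at 41.4, 35.4, 44.7 and 42.3 CPM in controls, 47.8, 45.9, 44.2, 49.9 and 46.2 CPM in the medium group and 47.8, 48.4, 44.6, 48.9 and 38.2 CPM in the high group, and 3 of its 5 high-dose libraries were above every control. ABCE1 was read at 134, 186, 127 and 136 CPM in controls, 136, 143, 145, 131 and 129 CPM in the medium group and 164, 144, 127, 140.3 and 116 CPM in the high group, with control 2 above every other library. ABCF1 was read at 104, 86.7, 76.0 and 93.8 CPM in controls, 78.8, 78.7, 70.2, 75.0 and 69.5 CPM in the medium group and 103, 77.6, 70.2, 77.1 and 79.3 CPM in the high group, and ABCF3 at 90.4, 27.8, 58.3 and 44.8 CPM in controls, 51.4, 56.0, 48.2, 58.7 and 50.9 CPM in the medium group and 64.0, 49.0, 51.0, 45.3 and 57.3 CPM in the high group, whose controls held both the highest and the lowest value. The log2 fold changes of these 8 members, high dose over control, ran from -0.15 to 0.16.

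At the medium dose 0 cormorant members were called against controls, beside 0.048% of all names, and between the high and medium doses 0 members and 0% of all names (edgeR). In these 2 comparisons 2 and 3 members had an unadjusted p under 0.05, beside 833 and 475 of all names, and DESeq2 and limma voom called 0 members in both. Of the 19 regulators tested in cormorants 0 passed; NR1H4 had the smallest adjusted p, with 0.58 on the log2 scale at the high dose (adjusted p = 0.0744, edgeR), and was 59.1 ± 4.18 CPM in high-dose livers (SD, n = 5) and 39.5 ± 5.95 CPM in controls (SD, n = 4). In quail the same receptor had -0.54 and did not pass either, and no test of its species difference is given here.

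The quail and cormorant responses to the high dose were compared directly, on the names present in both tables and with all 29 libraries in 1 fit. Of 42 members tested, 2 were called (1 higher and 1 lower), against 1.21% of 15596 names (0.757% higher and 0.449% lower). The high-dose change of ABCB1 was 1.33 ± 0.28 higher in quail than in cormorants on the log2 scale (adjusted p = 0.0102, edgeR), and that of ABCA2 was lower in quail (-0.82 ± 0.19, adjusted p = 0.0237, edgeR). The ABCA2 difference lost its call when cormorant high 3, high 5, control 2 or the unnumbered control was left out, at adjusted p of 0.0506 to 0.0748. With the replicate number as a block neither passed (ABCB1 1.31, adjusted p = 0.112, and ABCA2 -0.77, adjusted p = 0.136, edgeR). The block fit also leaves out the unnumbered control, so blocking and the loss of that library cannot be told apart there. For ABCC2 the difference was 0.34 ± 0.27 and did not pass (adjusted p = 0.703), nor did that of ABCA5 (-1.33, adjusted p = 0.0850, edgeR). ABCB4 could not be compared. At the medium dose 0 members and 0% of all names differed between species (edgeR), by DESeq2 and limma voom also 0 members, with 3 members and 1030 of all names at an unadjusted p under 0.05. Species, embryonic day, administered amount and sequencing table differ together, and cannot be told apart here.

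**Figure D5:**
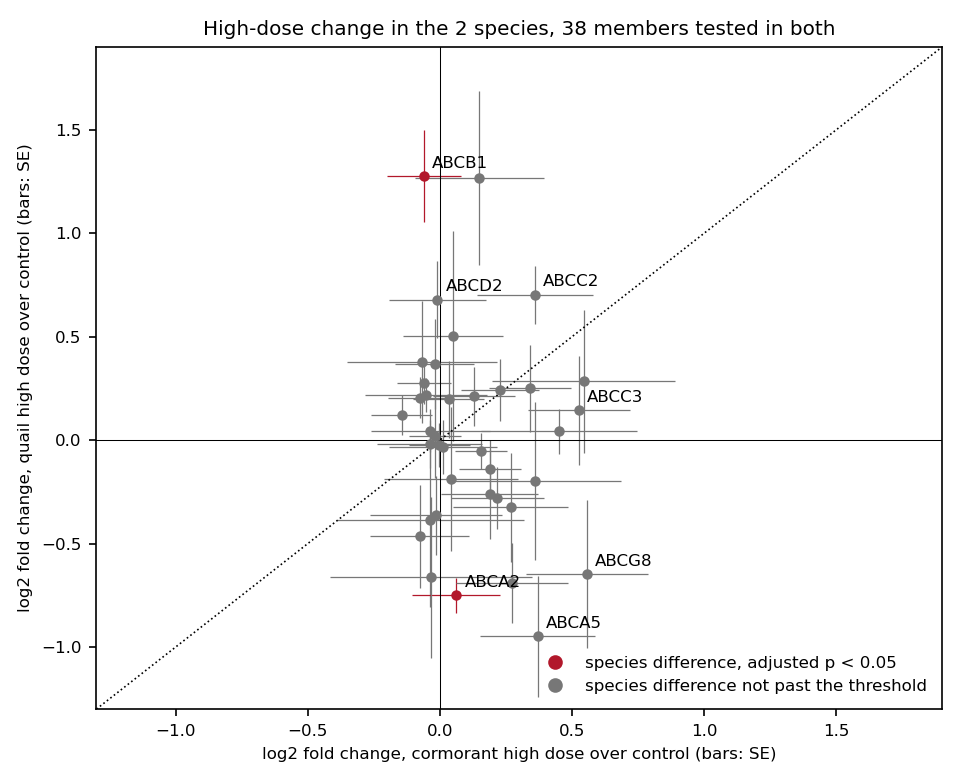
Log2 fold change at the high dose over control, with SE, in double-crested cormorant (horizontal axis) and Japanese quail (vertical axis) for the 38 members tested in both species; the dotted line marks equal change. ABCB1 (1.28 in quail, -0.06 in cormorant) and ABCA2 (-0.75 in quail, 0.06 in cormorant), in red, passed the test of the species difference in the fit without a replicate block.

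Too few reads to pass the count filter were found for 11 members in quail and 8 in cormorants. In quail these were ABCA8, ABCA9, ABCA9-like, ABCA10, ABCA1-like, ABCB5, ABCC12, ABCD2-like, ABCD3-like, ABCD4-like and ABCF3-like, and in cormorants ABCA8, ABCA8-like, ABCA10, ABCA13, ABCA1-like, ABCC8-like, ABCD2-like and ABCF3-like. Their totals were 1 to 209 reads over the 15 quail libraries and 1 to 48 reads over the 14 cormorant libraries. With no filter on low counts, ABCA9, a lipid transporter of the A subfamily, was called lower at the high dose in quail (log2 fold change -2.56, adjusted p = 0.0312, edgeR). It had 0 to 3 reads in each high-dose library and 4 to 11 in each control, without overlap in reads not scaled to the library total. Among names tested with the filter, 4.9% had groups that did not overlap. The share of the 22845 names called without the filter is not given here. ABCA9 was named after its values were seen, so its call carries no weight. ABCB5, another drug exporter of the B subfamily, had 129 reads in quail high 1 and 3 to 9 in every other quail library, and was named after its values were seen. That library is the one with the high kidney marker sum, whose part in this value was not tested. In cormorants ABCB5 was read at 165, 46.7, 148 and 77.6 CPM in controls, 74.8, 91.2, 136, 113 and 88.9 CPM in the medium group and 45.1, 81.7, 68.0, 57.9 and 139 CPM in the high group, with no call (log2 fold change -0.48 ± 0.35). The calls of ABCB1, ABCB4, ABCC2 and ABCA2 in quail held without high 1 (log2 fold changes 1.33, 1.62, 0.75 and -0.71, adjusted p at most 0.0116) and without control 5, the library labelled day 16 (1.33, 1.60, 0.71 and -0.76, adjusted p at most 0.0276, edgeR).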

How the data were processed

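The authors deposited raw read counts per protein name, 1 table per species; by the name of these deposited tables they came from Seq2Fun with an all-birds database. No source used here gives versions, filters or a genome build, and edgeR is named without a role in the submitters' processing notes. All values are whole numbers and 0 columns were left out. Columns were matched to labels by name; the columns marked S were taken as controls, the 1 group left.

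The fits used edgeR 4.0.16 under R 4.3.3: a robust quasi-likelihood test on group means, TMM factors and a filter (filterByExpr, count of 10, total of 15), with each species alone and both together for the species difference, with Benjamini-Hochberg adjustment over all names and calls under 0.05. The standard error is the log2 fold change over the square root of F. CPM are counts scaled to the TMM-adjusted library total. DESeq2 1.42.0, limma 3.58.1 (voom), RLE factors, no filter, 2 groups alone, each library left out and a replicate block were alternatives. The edgeR fit was tested on simulated counts with changes planted at the high dose. In each species 99 names tested carried a 2-fold change and 99 a 4-fold change. Planted 2-fold changes were called against controls in 64.6% of cases in quail and 65.7% in cormorants. For planted 4-fold changes these shares were 97.0% and 89.9%. The adjustment is stricter where fewer names change, and only 5 names were called at the high dose in cormorants. The shares may be too high for that species. A change that was not called is therefore not shown to be absent. Reads that are PCR duplicates are not independent, and p-values set a difference between groups against the spread between libraries. Named members were those called, the bile and sterol exporters, and the member with the smallest p per subfamily and species. Of the members 1, and of the cell type markers 2, are counted but not reported here by name. Members and lists were chosen with earlier results of these data known.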

Additional observations from a re-analysis of the deposited data

Results flagged for a closer look

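Single libraries stood apart from the rest of their group in 7 of 123 groups of 4 or 5 libraries examined. The measure was the gap to the nearest library over the range of the group, for which chance gives about 1 in 20. ABCB5, which is among the 7, was added after its values were seen, so the count cannot be set against that share. In quail, ABCG2 was 82.5 CPM in high 5, where the next library had 123 CPM, ABCG5 was 4.82 CPM in high 3 (next 10.8 CPM), ABCF3 was 61.5 CPM in high 2 (next 71.6 CPM) and ABCB5 was 5.50 CPM in high 1 (next 0.381 CPM). In cormorants, ABCF1 was 103 CPM in high 1 (next 79.3 CPM), ABCA13 was 0.816 CPM in medium 4 (next 0.282 CPM) and ABCE1 was 186 CPM in control 2 (next 136 CPM). Quail high 1 and cormorant control 2 are also the libraries with the highest kidney marker sums of their species, and the part of those markers was not tested.

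The high-dose change differed between the species for ABCB1, by 1.33 on the log2 scale (quail minus cormorant), and for ABCA2, by -0.82. Each passed an adjusted p of 0.05 in edgeR's test of the difference itself, as did 1.21% of all names. With the replicate number as a block, a fit that also leaves out the unnumbered cormorant control, neither passed (ABCB1 adjusted p = 0.112, ABCA2 adjusted p = 0.136, edgeR). The ABCA2 call was also lost without cormorant high 3, high 5, control 2 or the unnumbered control.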

How the results depend on the processing

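In quail, ABCB1, ABCB4, ABCC2 and ABCA2 kept direction and call at the high dose over control in each setting run; ABCA13 lost its call with no filter (adjusted p = 0.0609; ABCA9 was called there instead), in limma voom and in 5 of the fits that leave out 1 library, and was not tested with the 2 groups alone. Members called there were 4 to 9 (9 in DESeq2, which added ABCA5, ABCA12, ABCB9 and ABCD2). Names called in that comparison were 531, 972 in DESeq2 and 303 to 659 with 1 library left out, the fewest (303 to 347) without control 1, 2 or 4 or high 5. Between high and medium dose in quail, 282 names became 598 and 4 members became 7 in DESeq2, 128 and 2 with the 2 groups alone, and 166 to 391 names (fewest without high 3 or medium 2 to 5) and 2 to 5 members with 1 library left out. At the medium dose DESeq2 called 6 names in quail.

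In cormorants 0 members were called in any setting. Names called at the high dose were 5, and 3 with no filter, 60 in DESeq2, 2 with the 2 groups alone, 16 without both libraries whose columns carry the number 6 (chosen after seeing the data) and 2 to 14 with 1 library left out (14 without control 1). DESeq2 called 52 names at the medium dose and 4 between doses, and leaving out 1 library gave 6 to 16 (16 without high 1) and 0 to 1. For the species difference, DESeq2 called 361 names and 5 members at the high dose and 20 names at the medium dose, and leaving out 1 library gave 1 to 3 members and, at the medium dose, 0 to 1 names.

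Directions near 0 turned, and the cause was not tested. With 1 library left out, log2 fold changes in cormorants (high dose over control) were -0.13 to 0.18 for ABCA1, -0.047 to 0.21 for ABCA2, -0.15 to 0.060 for ABCB1, -0.22 to 0.085 for ABCC4, -0.031 to 0.094 for ABCC6, -0.16 to 0.20 for ABCD2, -0.27 to 0.054 for ABCD3, -0.13 to 0.062 for ABCE1 and -0.28 to 0.30 for ABCF3; in quail they were -0.013 to 0.31 for ABCC3 at the high dose and -0.094 to 0.18 for ABCB1 at the medium dose. limma voom gave 0.032 for ABCD2 and 0.065 for ABCF3 in cormorants, names summed by protein (chosen after seeing the data, and leaving ABCB4 no feature of its own) gave -0.025 for ABCC6, and the fit without both number 6 libraries gave 0.051 for ABCA1, 0.054 for ABCB1 and 0.21 for ABCF3. Of 759 single-member values with 1 library left out, 27 lost a call, but most of the 759 had no call in the main fit to lose. In quail, ABCA13 lost its call in 5 of 15 such fits at the high dose over control. Between the high and medium doses ABCA13 lost it in 12 of 15 and ABCB4 in 6 of 15. The species difference of ABCA2 at the high dose lost it in 4 of 29.

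Replicate numbers were not taken as pairing the libraries in the main fit. Of same-numbered pairs, 2 of 15 in quail and 6 of 11 in cormorants had a correlation over 0.1 (median 0.162 in cormorants, -0.119 to 0.385). Cormorant high 1 and high 2 correlated best with the same-numbered control, and high 3 and high 5 with the same-numbered medium-dose library. Quail high 3 and high 5 correlated best with the same-numbered control, while not every library correlated best with its own number. Same-numbered pairs were not tested against differently numbered ones, so pairing in cormorants is not settled here. Fits with the replicate block also leave out the unnumbered cormorant control. With the replicate block, quail calls between doses fell to 187 names and 2 members. Cormorant calls were 2 names at the high dose and 1 between doses, and the species difference had 93 names and 0 members at the high dose. ABCA13 at the high dose had an adjusted p of 0.0874, ABCA5 one of 0.0261, and ABCD3 in cormorants was 0.015. With the filter, low counts left 11 quail and 8 cormorant members untested.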
